A study of Mus musculus with 8 samples.

Results

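Cell cycle and proliferation genes were examined in sorted distal convoluted tubules (DCT) of mouse kidney, with and without TBC1D4. The list held 43 genes, of which 36 were measured by a probe set with exactly 1 symbol in the platform annotation, out of 18782 genes measured that way. Where a gene had several such probe sets, the one with the highest mean log2 value over the 8 arrays was used. Of the other 7 genes, Ccne2, Tyms, Kif20a, Nusap1, Foxm1 and Ube2c share their probe sets with another gene symbol, and Ccnb1 was not analysed here. The measured genes were taken apart by role into 8 genes of the G1 phase (of 9 listed), 11 of DNA replication (of 12) and 17 of mitosis (of 22).

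The arrays came from TBC1D4-deficient mice (4 samples) and wild-type mice (4 samples), all male, 8 weeks old and of strain C57/Bl6. Mice of both genotypes also carried a transgene with EGFP behind the parvalbumin promoter, written PV-EGFPwt/tg in the labels. That promoter is active in the early DCT, so later DCT that lacks parvalbumin would not be collected. Whether the loss of TBC1D4 was limited to a tissue, and whether animals were pooled, is not stated in the labels. Fluorescent tubule pieces were sorted on a large-particle sorter (COPAS), and 100 ng of RNA per sample was labelled for its own array. Separate animals are not stated for the samples, and each p-value therefore rests on sample-to-sample spread, part of which may be technical. Values are probe set intensities with no detection call, and differences are on the log2 scale, TBC1D4-deficient minus wild-type.

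A cell enters the cycle when D-type cyclins with CDK4 or CDK6, and then cyclin E with CDK2, phosphorylate the retinoblastoma protein and free E2F factors. E2F factors switch on the genes that license and copy DNA. The genes of mitosis are switched on later, by complexes that read a CHR element together with CCAAT boxes bound by NF-Y. Tubule cells of the adult kidney seldom divide, and the early DCT of rodents is known as a segment that can re-enter the cycle when salt or potassium intake changes.

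Promoters are shown for the genes with the smallest unadjusted p in each role group that the RefSeq promoter table holds, to show the elements through which these genes are known to be switched on. Each window runs from 250 bases before to 50 bases after the gene start in GRCm38.p6, is written 5′ to 3′ on the strand of the gene, and has its matches to the searched elements in capitals. The CCAAT box was searched by its 5 letters. The CHR element was searched as TTTGAA and also in the spelling TTTAAA, which reads the same on both strands and was counted once. For the E2F site the first spelling was TTCCCGC. The second spelling of that site was TTGGCGC. The third spelling of it was TTCGCGC. The last spelling searched was TTGCCGC. All were searched on both strands. From the G1 group come Ccne1 (chr7:38107441-38107740, minus strand) and Cdk2 (chr10:128705002-128705301, minus strand).
Ccne1: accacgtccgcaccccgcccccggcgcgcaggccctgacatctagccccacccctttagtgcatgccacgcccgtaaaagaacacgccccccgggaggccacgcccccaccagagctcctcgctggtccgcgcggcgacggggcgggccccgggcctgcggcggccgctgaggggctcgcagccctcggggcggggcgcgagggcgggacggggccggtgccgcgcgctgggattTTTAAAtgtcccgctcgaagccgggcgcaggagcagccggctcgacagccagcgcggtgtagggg
Cdk2: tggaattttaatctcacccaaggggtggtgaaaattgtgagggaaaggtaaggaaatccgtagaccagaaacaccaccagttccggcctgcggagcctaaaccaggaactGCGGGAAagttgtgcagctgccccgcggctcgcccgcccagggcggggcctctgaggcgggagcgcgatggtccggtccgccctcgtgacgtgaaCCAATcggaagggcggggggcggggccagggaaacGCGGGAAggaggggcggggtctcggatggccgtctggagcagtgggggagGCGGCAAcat
The replication genes Rrm2 (chr12:24708004-24708303, plus strand) and Pcna (chr2:132253131-132253430, minus strand) follow, with Mcm6 (chr1:128359656-128359955, minus strand) added after its values were seen as a window with 5 E2F matches. Of these, 4 form 2 overlapping pairs on opposite strands, so that 3 separate E2F stretches are in capitals. The 2 CCAAT boxes of Mcm6 are in capitals as well.
Rrm2: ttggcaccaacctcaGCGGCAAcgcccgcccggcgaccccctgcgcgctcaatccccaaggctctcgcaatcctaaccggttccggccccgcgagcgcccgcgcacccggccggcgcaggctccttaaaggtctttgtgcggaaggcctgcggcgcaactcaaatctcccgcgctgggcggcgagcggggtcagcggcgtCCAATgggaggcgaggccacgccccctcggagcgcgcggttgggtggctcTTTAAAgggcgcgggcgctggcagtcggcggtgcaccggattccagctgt
Pcna: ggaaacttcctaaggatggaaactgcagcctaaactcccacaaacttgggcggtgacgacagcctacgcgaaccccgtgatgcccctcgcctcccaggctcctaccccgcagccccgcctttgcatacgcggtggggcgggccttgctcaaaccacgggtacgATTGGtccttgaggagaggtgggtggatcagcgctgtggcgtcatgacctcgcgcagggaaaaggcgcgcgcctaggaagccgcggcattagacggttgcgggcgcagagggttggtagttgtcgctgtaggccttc
Mcm6: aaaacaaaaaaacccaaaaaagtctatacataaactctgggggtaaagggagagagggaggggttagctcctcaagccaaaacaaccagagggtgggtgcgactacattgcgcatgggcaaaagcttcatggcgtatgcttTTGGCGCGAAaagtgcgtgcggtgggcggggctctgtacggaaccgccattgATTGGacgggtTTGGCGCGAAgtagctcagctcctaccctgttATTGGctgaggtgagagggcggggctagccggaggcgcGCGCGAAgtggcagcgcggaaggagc
For mitosis the windows are those of Birc5 (chr11:117848987-117849286, plus strand) and Top2a (chr11:99024140-99024439, minus strand), with Ccnb2 (chr9:70421505-70421804, minus strand) added after its values were seen.
Birc5: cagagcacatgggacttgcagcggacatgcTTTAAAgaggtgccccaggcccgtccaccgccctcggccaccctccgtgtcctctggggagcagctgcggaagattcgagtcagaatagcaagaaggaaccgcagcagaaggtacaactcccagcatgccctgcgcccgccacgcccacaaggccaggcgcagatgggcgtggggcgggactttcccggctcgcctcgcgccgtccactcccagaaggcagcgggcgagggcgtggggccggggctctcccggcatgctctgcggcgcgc
Top2a: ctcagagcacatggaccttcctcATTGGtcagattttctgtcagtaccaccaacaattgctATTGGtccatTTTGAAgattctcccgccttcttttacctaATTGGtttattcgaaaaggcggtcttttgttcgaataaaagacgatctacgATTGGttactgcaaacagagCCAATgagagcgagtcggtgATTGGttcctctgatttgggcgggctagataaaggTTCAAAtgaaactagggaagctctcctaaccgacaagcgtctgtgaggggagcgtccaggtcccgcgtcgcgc
Ccnb2: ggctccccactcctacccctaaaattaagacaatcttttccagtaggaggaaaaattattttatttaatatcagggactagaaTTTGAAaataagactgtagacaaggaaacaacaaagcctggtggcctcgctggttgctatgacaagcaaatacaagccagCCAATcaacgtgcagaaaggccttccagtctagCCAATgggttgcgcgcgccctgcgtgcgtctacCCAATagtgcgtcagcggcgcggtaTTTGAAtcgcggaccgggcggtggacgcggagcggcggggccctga

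Of the 43 listed genes, 34 were in the RefSeq table, with 36 windows. Both a CCAAT box and a CHR match were found in 13 of 17 windows of mitosis genes, 3 of 12 windows of replication genes and 0 of 7 windows of G1 genes, against 10.7% of all 32851 windows. Top2a held 6 CCAAT boxes and 2 CHR matches, and Birc5 held 1 CHR match and no CCAAT box. E2F matches were present in 9 of 12 windows of replication genes, 3 of 17 of mitosis genes and 1 of 7 of G1 genes, against 9.57% of all windows. A match is a stretch of letters and was not measured as a bound site in these mice.

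The DCT-defining markers Slc12a3, the thiazide-sensitive cotransporter, and Pvalb averaged 11.49 and 9.75 on the log2 scale in TBC1D4-deficient arrays, against 11.49 and 9.69 in wild-type arrays. Some markers of other segments were as bright. In wild-type arrays Slc34a1 of the proximal tubule averaged 9.73 and Umod of the thick ascending limb 11.14. Others were dimmer there, such as Cubn of the proximal tubule at 6.18 and Slc12a1 of the thick ascending limb at 7.54. Which cells gave the cell cycle signals was not tested. Tbc1d4 (probe set 10422028, chromosome 14) read 5.59, 6.59, 5.65 and 4.64 in TBC1D4-deficient replicates 1 to 4, against 103, 111, 95.6 and 123 in wild-type replicates 1 to 4. It fell by 4.27 on the log2 scale (95% interval -4.52 to -4.02; limma adjusted p = 6.35e-08). Pearson correlations between arrays ran from 0.993 to 0.997. The sample descriptions open with numbers of unstated meaning, and those numbered 5 to 8 (TBC1D4-deficient replicates 3 and 4, wild-type replicates 2 and 3) and 9 to 12 (the other arrays) hold 2 arrays of each genotype apiece. The numbers run on without a gap, and the cut between 8 and 9 was chosen here and is not given by the labels.

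None of the 36 measured cell cycle genes passed the test between genotypes after adjustment over all 23039 probe sets tested (limma, smallest adjusted p = 0.9999), where 0.00434% of all probe sets passed. An unadjusted limma p below 0.05 was found for 3 members, Birc5, Top2a and Ccnb2, beside 2.9% of all probe sets. All 3 are mitosis genes with the higher mean in TBC1D4-deficient tubules, and 1.42% of all probe sets had such a p in that direction. The groups did not overlap for 1 member, Birc5, beside 1.85% of all probe sets in either direction and 0.942% in its own. Of the 36 genes, 27 lay above 0 and 9 below, with a median log2 difference of 0.054, while 49.6% of all 18782 genes lay above 0 with a median of -0.00074. The 95% interval lay inside 1.5-fold for 31 of 36 members and for 97.5% of all genes.

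**Figure D1:**
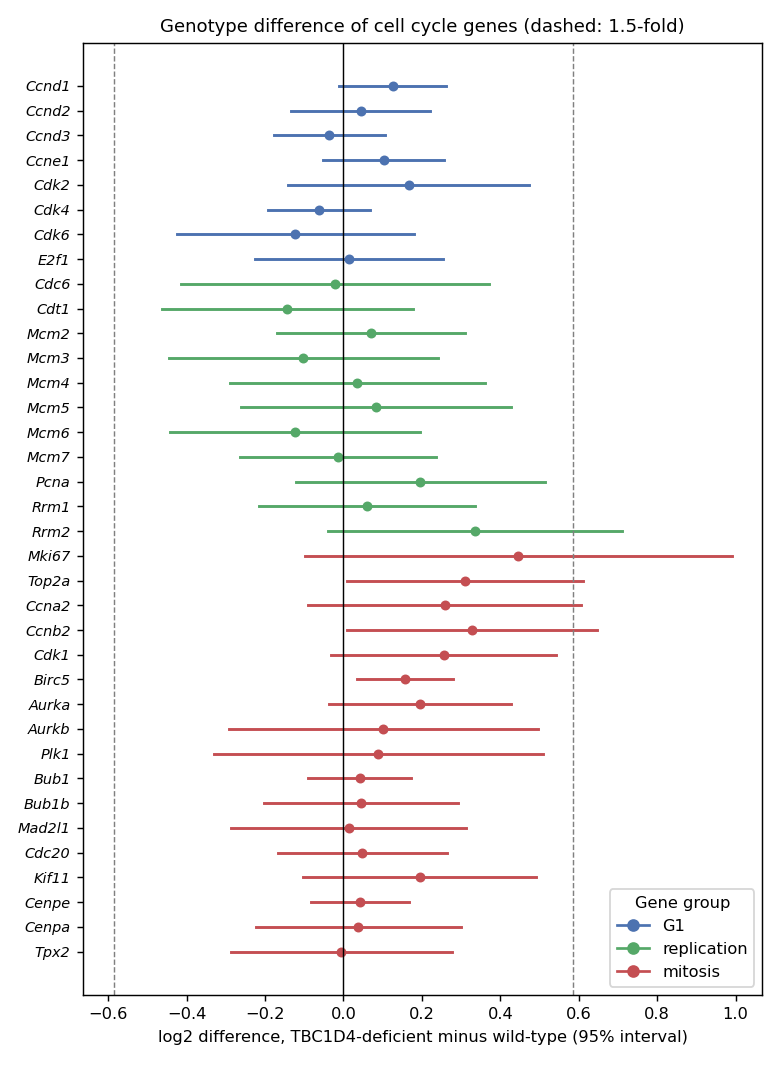
Genotype difference of the 36 measured cell cycle genes, as log2 difference of TBC1D4-deficient minus wild-type (points) with the 95% interval of the limma fit (bars), coloured by role; dashed lines mark 1.5-fold. The points of 16 of 17 mitosis genes lie above 0 (10 of 17 without TBC1D4-deficient replicate 3), while G1 and replication genes lie on both sides, and the intervals of Birc5, Top2a and Ccnb2 alone leave out 0 before adjustment.

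Several of these genes gave intensities near those of genes that a tubule is not known to use. The 1177 probe sets of olfactory and vomeronasal receptors had a median log2 value of 1.56 and a 95th percentile of 2.47, an intensity of 5.54. The mean level lay above that percentile for 33 of the 36 members, including all 8 G1 genes, and for 66.1% of all genes. Among the G1 genes E2f1 cleared the percentile only narrowly, averaging 2.479 in TBC1D4-deficient and 2.465 in wild-type arrays on the log2 scale. Cdc6, Bub1 and Cenpe lay at or below the percentile. At such levels signal and background are not separated, and differences can come out smaller than they are.

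The G1 group had the smallest median log2 difference of the role groups, 0.029: 5 of 8 lay above 0, none passed, and all 8 intervals were inside 1.5-fold. Ccnd1, cyclin D1 (probe set 10569646, chromosome 7), read 645, 633, 659 and 623 in TBC1D4-deficient replicates 1 to 4, against 569, 560.4, 584 and 636 in wild-type replicates 1 to 4. Wild-type replicate 4 lay within the range of the TBC1D4-deficient arrays, and the other wild-type arrays lay below that range. The averages were 9.32 ± 0.035 in TBC1D4-deficient and 9.20 ± 0.081 in wild-type arrays on the log2 scale (SD, n = 4 each), and they differed by 0.13 (95% interval -0.011 to 0.26; limma adjusted p = 0.9999). Set by set, the difference came to 0.16 for arrays 5 to 8 and 0.087 for 9 to 12.

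Ccnd3, cyclin D3, read 159, 163, 148 and 172 in TBC1D4-deficient replicates 1 to 4, against 163, 170.3, 158 and 165 in wild-type replicates 1 to 4, and the groups overlapped throughout. Its log2 difference was -0.036 (95% interval -0.18 to 0.10). Ccnd2, cyclin D2, was dim at 9.04 to 11.6 over all arrays, with a log2 difference of 0.044 (-0.13 to 0.22).

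Cdk4, the kinase partner of the D-type cyclins (chromosome 10), read 206, 193, 192 and 193 in TBC1D4-deficient replicates 1 to 4, against 208, 192, 209 and 209 in wild-type replicates 1 to 4. TBC1D4-deficient replicate 1 stood with 3 of the wild-type arrays, and wild-type replicate 2 stood with the other TBC1D4-deficient arrays. The log2 difference was -0.062 (-0.19 to 0.068). Cdk6, the other partner of the D-type cyclins, had a log2 difference of -0.12 (-0.42 to 0.18), with its lowest intensities of 17.4 and 18.7 in TBC1D4-deficient replicates 3 and 4 and 18.7 in wild-type replicate 2.

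Cdk2, the kinase of cyclins E and A, read 24.1, 21.1, 18.8 and 23.5 in TBC1D4-deficient replicates 1 to 4, against 19.7, 16.6, 17.0 and 25.6 in wild-type replicates 1 to 4. The highest array was wild-type replicate 4, and the groups overlapped (log2 difference 0.17, -0.14 to 0.47). Ccne1, cyclin E1, was dim at 7.71, 6.82, 7.49 and 8.2 in TBC1D4-deficient replicates 1 to 4, against 7.25, 7.24, 6.78 and 6.83 in wild-type replicates 1 to 4. TBC1D4-deficient replicate 2 lay among the wild-type arrays, and the log2 difference was 0.10 (-0.051 to 0.26). E2f1, the factor freed at the end of G1, ran from 4.53 to 6.33 over the 8 arrays with a log2 difference of 0.015 (-0.23 to 0.25). Its arrays lay on both sides of the receptor percentile of 5.54.

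Replication genes were split in direction, 6 above and 5 below 0, and 10 of 11 intervals were inside 1.5-fold. Rrm2, the S-phase subunit of ribonucleotide reductase (probe set 10394978, chromosome 12), read 50.5, 52.4, 74.8 and 76.1 in TBC1D4-deficient replicates 1 to 4, against 37.4, 52.2, 54.6 and 55.5 in wild-type replicates 1 to 4. TBC1D4-deficient replicates 3 and 4 lay above every other array, replicates 1 and 2 lay among the wild-type arrays, and wild-type replicate 1 was the lowest. The averages were 5.96 ± 0.32 in TBC1D4-deficient and 5.62 ± 0.27 in wild-type arrays on the log2 scale (SD, n = 4 each), and they differed by 0.34 (-0.039 to 0.71; limma adjusted p = 0.9999). Set by set, the difference of Rrm2 came to 0.50 for arrays 5 to 8 and 0.17 for 9 to 12. Rrm1, the large subunit of the same enzyme, is made through more of the cycle. Its arrays ran in another order, with 43.5, 33.9, 36.4 and 33.9 in TBC1D4-deficient replicates 1 to 4, against 33.4, 30.2, 34.5 and 44.5 in wild-type replicates 1 to 4, and a log2 difference of 0.06 (-0.21 to 0.33).

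Pcna, the sliding clamp of DNA polymerase (chromosome 2), read 144, 123, 168 and 173 in TBC1D4-deficient replicates 1 to 4, against 124, 134, 108 and 166 in wild-type replicates 1 to 4. Wild-type replicate 4 lay beside TBC1D4-deficient replicates 3 and 4 at the top, and the groups overlapped (log2 difference 0.20, -0.12 to 0.51). Set by set, the difference came to 0.51 for arrays 5 to 8 and -0.11 for 9 to 12. A second probe set of Pcna averaged 7.24 in TBC1D4-deficient and 7.03 in wild-type arrays on the log2 scale, a difference of 0.21 (-0.10 to 0.52).

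The 6 subunits of the MCM helicase, which unwinds DNA at the fork, had log2 differences from -0.12 to 0.083, with 3 above and 3 below 0. Mcm6 read 9.97, 9.96, 14.0 and 13.5 in TBC1D4-deficient replicates 1 to 4, against 12.2, 10.9, 12.6 and 15.8 in wild-type replicates 1 to 4 (log2 difference -0.12, -0.44 to 0.19). Wild-type replicate 4 was the highest of the 8 arrays for Mcm6 and for each of the other MCM subunits. Mcm3 stood apart most in that array, at 9.89 beside 6.07, 5.76, 7.24 and 6.79 in TBC1D4-deficient replicates 1 to 4 and 6.32, 6.00 and 6.08 in wild-type replicates 1 to 3. Cdt1, which loads the helicase with Cdc6, read 9.05, 8.62, 10.0 and 12.8 in TBC1D4-deficient replicates 1 to 4, against 8.81, 12.2, 10.7 and 12.9 in wild-type replicates 1 to 4. Its highest array was likewise wild-type replicate 4, with TBC1D4-deficient replicate 4 next to it (log2 difference -0.14, -0.46 to 0.18). Cdc6 had a log2 difference of -0.022 (-0.41 to 0.37).

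Mitosis genes leaned upward in TBC1D4-deficient tubules without passing the test: 16 of 17 lay above 0 and 0 passed, with a median log2 difference of 0.10. The count above 0 was 10 of 17 without TBC1D4-deficient replicate 3 and 13 of 17 without replicate 4. It was 12 of 17, with a median of 0.06, once the range of a second number in the sample descriptions, described beside the array sets, entered as a covariate. These genes share a cell cycle phase and the same arrays, so their directions are not independent of each other. Birc5 (survivin, a subunit of the chromosomal passenger complex; probe set 10382998, chromosome 11) read 5.93, 6.14, 5.81 and 5.9 in TBC1D4-deficient replicates 1 to 4, against 5.21, 5.29, 5.24 and 5.59 in wild-type replicates 1 to 4. Each TBC1D4-deficient array lay above each wild-type array, by a small margin. All 4 TBC1D4-deficient arrays lay above the receptor percentile of 5.54, against 1 of 4 wild-type arrays, so Birc5 counts as above it only through the TBC1D4-deficient group. The averages were 2.57 ± 0.033 and 2.41 ± 0.047 on the log2 scale in TBC1D4-deficient and wild-type arrays (SD, n = 4 each), with a log2 difference of 0.16 (0.034 to 0.28; limma adjusted p = 0.9999). The highest Birc5 arrays were TBC1D4-deficient replicates 1 and 2.

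Top2a, the topoisomerase that untangles replicated DNA (chromosome 11), read 8.89, 9.32, 11.4 and 12.6 in TBC1D4-deficient replicates 1 to 4, against 6.71, 9.18, 9.32 and 8.76 in wild-type replicates 1 to 4. Its high arrays were TBC1D4-deficient replicates 3 and 4, its low array was wild-type replicate 1, and the remaining 5 arrays overlapped. The log2 difference was 0.31 (0.0095 to 0.61; limma adjusted p = 0.9999). Ccnb2, a cyclin that drives entry into mitosis with Cdk1 (probe set 10594774, chromosome 9), read 17.6, 21.7, 26.9 and 23.4 in TBC1D4-deficient replicates 1 to 4, against 17.3, 18.3, 21.3 and 14.3 in wild-type replicates 1 to 4. TBC1D4-deficient replicate 1 lay among the wild-type arrays, and the lowest array was wild-type replicate 4. The log2 difference was 0.33 (0.0085 to 0.65; limma adjusted p = 0.9999). By set of arrays it came to 0.34 for 5 to 8 and 0.31 for 9 to 12.

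Cdk1, the mitotic kinase itself, read 11.1, 9.01, 11.0 and 13.8 in TBC1D4-deficient replicates 1 to 4, against 7.86, 10.2, 10.1 and 9.1 in wild-type replicates 1 to 4. The groups overlapped in TBC1D4-deficient replicate 2, and the log2 difference was 0.26 (-0.032 to 0.54), at 0.27 within arrays 5 to 8 and 0.24 within 9 to 12. Ccna2, the cyclin of S phase and G2, read 21.4, 21.4, 26.4 and 33.9 in TBC1D4-deficient replicates 1 to 4, against 18.4, 21.8, 25.9 and 19.3 in wild-type replicates 1 to 4. Wild-type replicate 3 nearly reached TBC1D4-deficient replicate 3, and replicates 1 and 2 of the TBC1D4-deficient group lay within the wild-type range (log2 difference 0.26, -0.09 to 0.61).

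Mki67, the proliferation marker Ki-67, had the largest log2 difference of the 36 genes and the widest interval, 0.45 (-0.098 to 0.99; limma adjusted p = 0.9999). It was picked for description after its values were seen. Its intensities were 13.1, 12.1, 22.8 and 24.3 in TBC1D4-deficient replicates 1 to 4, against 8.96, 14.5, 14.0 and 14.1 in wild-type replicates 1 to 4. TBC1D4-deficient replicates 3 and 4 stood well above all other arrays, and replicates 1 and 2 lay below 3 of the 4 wild-type arrays. By set of arrays the log2 difference came to 0.73 for 5 to 8 and 0.17 for 9 to 12.

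**Figure D2:**
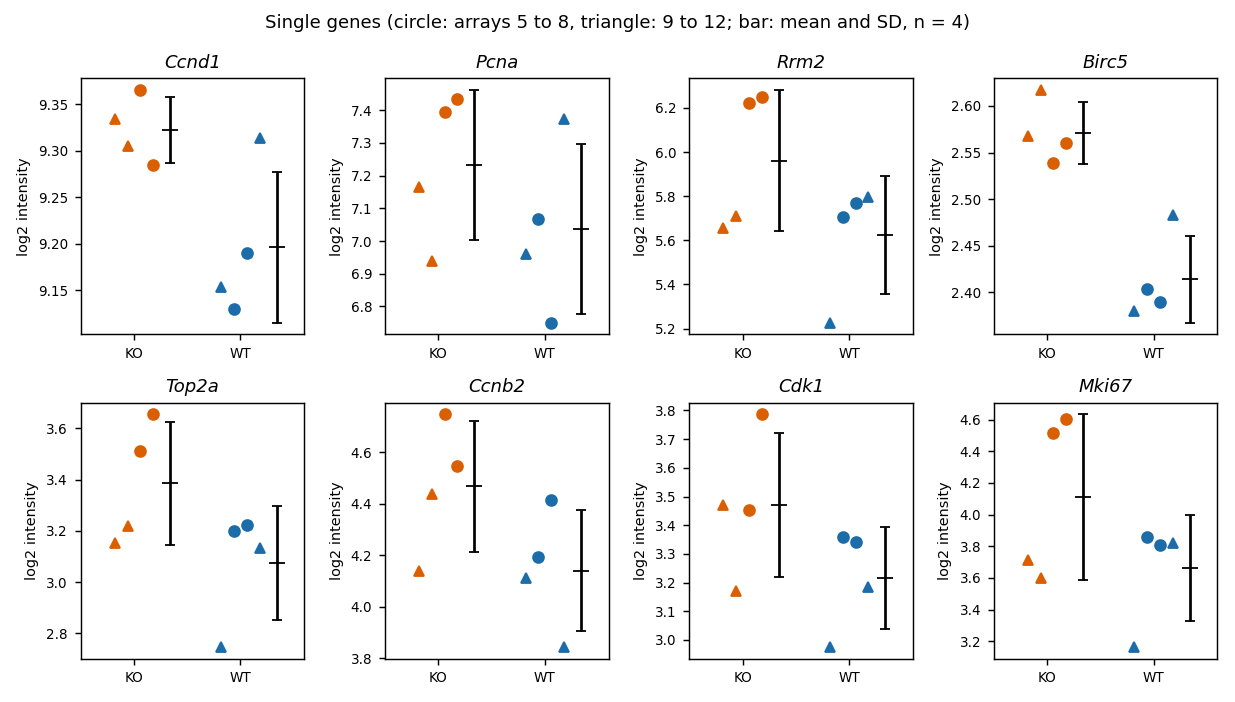
log2 intensity of 8 cell cycle genes in each array, TBC1D4-deficient (KO) left of wild-type (WT), with mean and SD (n = 4) beside the points; circles are arrays numbered 5 to 8 and triangles those numbered 9 to 12, and each panel has its own axis. For Rrm2, Top2a and Mki67 the top of each panel is held by the circles of the TBC1D4-deficient group, while Birc5 alone shows no overlap between genotypes.

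Among the other mitosis genes no log2 difference exceeded that of Aurka. Aurka, the spindle pole kinase, had a log2 difference of 0.20 (-0.037 to 0.43) and Aurkb, the kinase of the passenger complex, of 0.10 (-0.29 to 0.50). Plk1, a kinase of mitotic entry and exit, read 6.04, 7.99, 11.7 and 10.8 in TBC1D4-deficient replicates 1 to 4, against 6.96, 9.39, 8.28 and 8.77 in wild-type replicates 1 to 4, so that its lowest and its highest array were both TBC1D4-deficient (log2 difference 0.088, -0.33 to 0.51). By set of arrays its difference came to 0.35 for 5 to 8 and -0.17 for 9 to 12. Mad2l1, of the spindle checkpoint, read 24.8, 21.3, 29.2 and 28.5 in TBC1D4-deficient replicates 1 to 4, against 21.6, 22.9, 27.0 and 31.7 in wild-type replicates 1 to 4. As for the MCM genes, wild-type replicate 4 was on top, and the log2 difference was 0.014 (-0.29 to 0.31).

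The checkpoint kinases Bub1 and Bub1b and the activator of the anaphase-promoting complex, Cdc20, had log2 differences of 0.041, 0.044 and 0.048. Those of the motor protein genes Kif11 and Cenpe were 0.19 and 0.043. Cenpa, the histone of centromeres, stood at 0.038 (-0.22 to 0.30), and Tpx2, a spindle assembly factor, at -0.0053 (-0.29 to 0.28), the only mitosis gene below 0.

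The members varied between arrays of 1 genotype in 2 different patterns, seen once each gene was centred on its mean over the 8 arrays and the genes of a role were averaged. The mitosis mean came to -0.124, -0.0885, 0.245 and 0.268 on the log2 scale in TBC1D4-deficient replicates 1 to 4, against -0.213, -0.0145, 0.00814 and -0.0815 in wild-type replicates 1 to 4. TBC1D4-deficient replicates 3 and 4 lay above every other array, and replicates 1 and 2 lay within the wild-type range. The replication mean came to -0.0953, -0.126, 0.112 and 0.178 in TBC1D4-deficient replicates 1 to 4, against -0.134, -0.129, -0.0908 and 0.285 in wild-type replicates 1 to 4, with wild-type replicate 4 on top and TBC1D4-deficient replicates 4 and 3 next. Wild-type replicate 4 was thus high for replication genes but not for mitosis genes. The G1 mean came to 0.0402, 0.00886, -0.0424 and 0.0514 in TBC1D4-deficient replicates 1 to 4, against -0.0287, -0.0775, -0.00487 and 0.053 in wild-type replicates 1 to 4, a narrower span. Wild-type replicate 4 was narrowly on top here as well, with TBC1D4-deficient replicate 4 next, and TBC1D4-deficient replicate 3 was below all but 1 array.

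**Figure D3:**
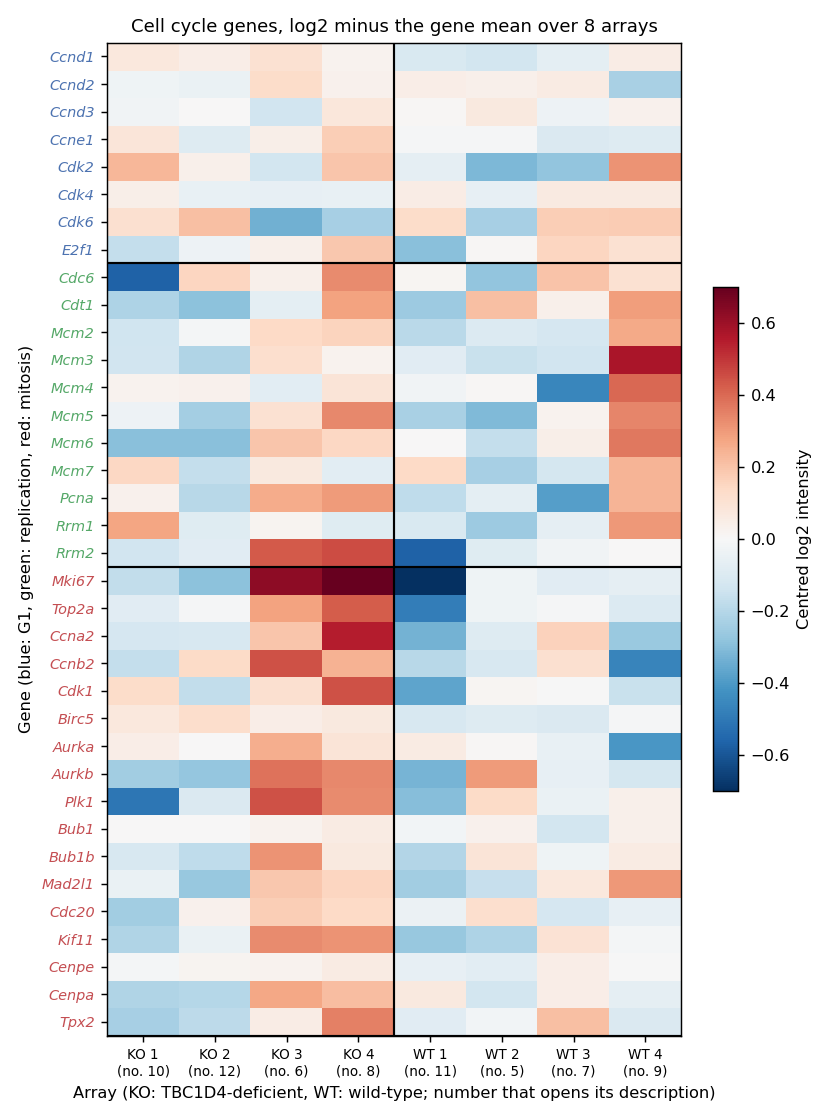
log2 intensity of the 36 measured genes (rows, by role) in the 8 arrays (columns, TBC1D4-deficient left of wild-type), each gene minus its mean over the arrays. Most mitosis genes are red, above their mean, in TBC1D4-deficient replicates 3 and 4, and most replication genes are red in wild-type replicate 4 as well.

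Counted by gene, and with the pair of arrays picked after the values were seen, TBC1D4-deficient replicates 3 and 4 were the 2 highest arrays for 10 of 17 mitosis genes, 2 of 11 replication genes (Pcna and Rrm2) and 0 of 8 G1 genes. Among all 18782 genes the same pair was highest for 3.75%. Both arrays belong to the set numbered 5 to 8, and the genotype difference was therefore also read within each set. The median log2 difference of the mitosis genes was 0.24 within arrays 5 to 8, where 17 of 17 lay above 0, and 0.0099 within 9 to 12, where 9 of 17 did. For replication genes the medians were 0.23 (10 of 11 above 0) and -0.195 (1 of 11 above 0), which is a change of direction. In arrays 9 to 12 the replication mean was 0.285 in wild-type replicate 4 and -0.134 in wild-type replicate 1. It was -0.0953 and -0.126 in TBC1D4-deficient replicates 1 and 2, so the change of direction rests on wild-type replicate 4. The G1 medians were 0.035 and 0.0079, with 5 of 8 above 0 in each set.

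**Figure D4:**
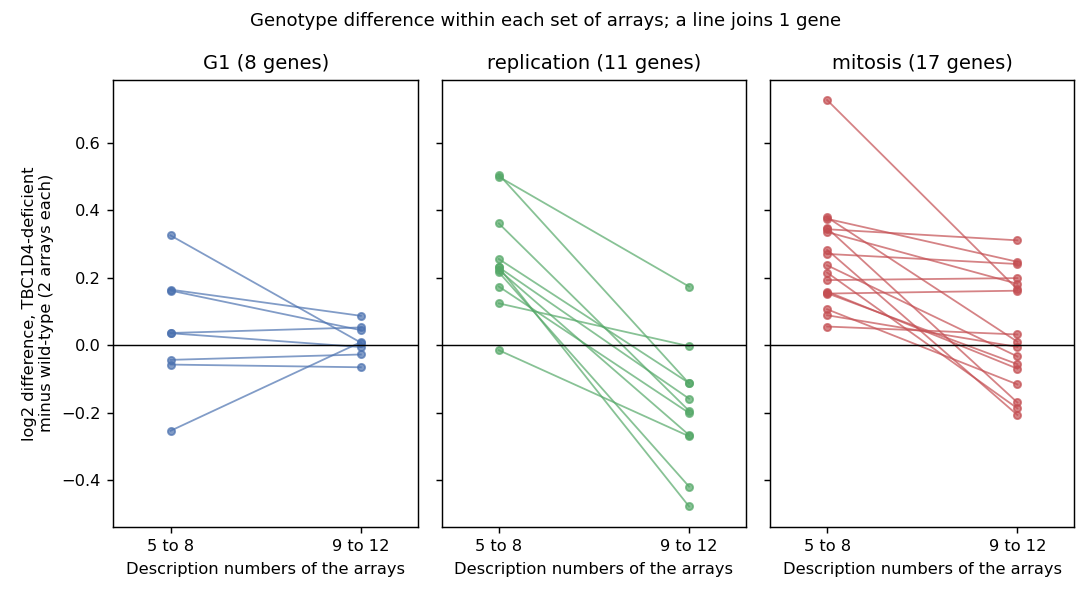
log2 difference of TBC1D4-deficient minus wild-type within arrays numbered 5 to 8 and within those numbered 9 to 12, with 2 arrays of each genotype in a set; each line is 1 gene, in panels by role. Replication genes lie above 0 in the first set, except 1, and below 0 in the second, except 1. The second set holds wild-type replicate 4, the highest array for the replication mean (0.285).

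Whether the genotype difference of a gene departs between the sets was tested with an interaction term over all probe sets. None of the 36 members passed (limma, smallest adjusted p = 0.9994), and 0% of all probe sets did. The unadjusted p was below 0.05 for 5 members, beside 4.51% of all probe sets. These were Mcm3, Mcm6, Pcna, Plk1 and Cenpa, named for this result alone. The difference within 5 to 8 minus that within 9 to 12 was 0.71 (95% interval 0.29 to 1.13) for Mcm6 and 0.62 (95% interval 0.10 to 1.14) for Pcna. The sets themselves, with genotype as a term, gave no call among the 36 members after adjustment, beside 0.00868% of all probe sets. The mean was higher in arrays 5 to 8 for 25 members, but the same count over all genes was not taken. The median intensity of a whole array was also higher there, at 8.93 to 9.03 against 8.41 to 8.77 in arrays 9 to 12. The count is therefore not read as a trait of the members.

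A second number in the descriptions, also of unstated meaning, falls into a lower and an upper range that run nearly with genotype. The lower range holds 3 of 4 TBC1D4-deficient and 1 of 4 wild-type arrays, and the upper range holds the rest. Values within each range were added after the data were seen, and in each the genotype with 1 array was assumed to vary like the other. The mitosis median was 0.15 within the lower and 0.0097 within the upper range, with 12 of 17 genes above 0 in each. For replication the medians were 0.21 and -0.13, a turn of direction, and with the range as a covariate the replication median was 0.076. The upper range holds wild-type replicate 4, with a replication mean of 0.285. The other arrays of that range, TBC1D4-deficient replicate 2 and wild-type replicates 1 and 3, stood at -0.126, -0.134 and -0.0908. No member was called in these fits.

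Leaving out single arrays moved these medians, though no member was called in any such fit. The mitosis median of 0.10 became 0.20, 0.042 and 0.032 when replicate 1, 3 or 4 of the TBC1D4-deficient group was dropped. It became 0.067 and 0.15 when replicate 1 or 2 of the wild-type group was dropped. The replication median of 0.036 became 0.0085 on dropping TBC1D4-deficient replicate 4. For wild-type replicates 1, 2 and 4, dropped in turn, it became 0.02, -0.014 and 0.17. The G1 median of 0.029 was lowest, at -0.0029, on dropping TBC1D4-deficient replicate 4, and highest, at 0.068, on dropping wild-type replicate 3. It also moved by over 1.5 times when replicate 1, 2 or 3 of the TBC1D4-deficient group or replicate 1 or 4 of the wild-type group was dropped.

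Other genes of the same machinery were read from lists that the members are not part of, and none of their genes passed the test. Of 45 other mitosis genes, 32 lay above and 13 below 0, with a median log2 difference of 0.049. The median of this list was 0.12 within arrays 5 to 8, where 38 of 45 lay above 0. Within arrays 9 to 12 it was -0.028, with 19 of 45 above 0, so the direction turned. Ckap2, a spindle protein, had 4.73, 5.74, 6.31 and 7.45 in TBC1D4-deficient replicates 1 to 4, against 4.75, 4.37, 5.37 and 4.58 in wild-type replicates 1 to 4, with a log2 difference of 0.33 (0.048 to 0.61; limma adjusted p = 0.9999). Its mean over the 8 arrays lay below the receptor percentile, and 23 of the 45 genes of this list (51.1%) lay above it. Ttk, a kinase of the spindle checkpoint, lay the other way at -0.17 (-0.30 to -0.046) with no overlap of the groups, and with all arrays at 3.08 to 3.69, likewise under the percentile. By array, this list averaged -0.0601, -0.0895, 0.128 and 0.126 in TBC1D4-deficient replicates 1 to 4, against -0.0946, 0.0148, -0.00372 and -0.021 in wild-type replicates 1 to 4, again with TBC1D4-deficient replicates 3 and 4 on top. Those 2 arrays were the highest for 12 of the 45 genes.

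Of 34 other replication genes, 25 lay above and 9 below 0 (median 0.039). Prim1, the catalytic primase subunit, stood at -0.32 (-0.62 to -0.016), and Rfc2, a subunit of the clamp loader, at 0.21 (-0.11 to 0.54). By array the list averaged 0.0126, -0.0546, 0.0367 and 0.0747 in TBC1D4-deficient replicates 1 to 4, against -0.0838, -0.0996, -0.0551 and 0.169 in wild-type replicates 1 to 4, so wild-type replicate 4 was the highest array here too. Medians within arrays 5 to 8 and 9 to 12 were 0.17 and -0.062.

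Inhibitors and regulators of the cycle were spread around 0. Of 10 CDK inhibitors and pocket proteins, 4 lay above and 6 below 0 (median -0.0026). Cdkn1a (p21), which halts the cycle, had 43.5, 46.3, 46.9 and 40.2 in TBC1D4-deficient replicates 1 to 4, against 37.0, 59.8, 34.3 and 28.9 in wild-type replicates 1 to 4, a log2 difference of 0.20 (-0.21 to 0.61). Its wild-type arrays spanned the range of the TBC1D4-deficient ones. Rbl1 (p107), a pocket protein of the retinoblastoma family, stood at 0.15 (-0.11 to 0.41). Among 15 E2F, DREAM and MYB factors, 7 lay above and 8 below 0, with Mybl1 at 0.18 (-0.069 to 0.43) and Mybl2 (B-MYB), which drives late cell cycle genes, at -0.15 (-0.38 to 0.086).

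Markers of other cells that sorted tubules can carry also moved between arrays, and since these are bulk samples, fewer cells of a type and less RNA per cell cannot be told apart. The mean of 11 proximal tubule markers was -1.06, 0.289, 0.0398 and 0.0409 in TBC1D4-deficient replicates 1 to 4, against -0.424, -0.322, 0.758 and 0.68 in wild-type replicates 1 to 4. TBC1D4-deficient replicates 3 and 4, the arrays with high mitosis genes, lay near 0 in these markers, and all 11 markers averaged lower in the TBC1D4-deficient group. With this marker mean as a covariate the median of the mitosis genes was 0.16, over 1.5 times its value without the covariate, and 0 members were called. All 12 endothelial markers likewise averaged lower in the TBC1D4-deficient group. An unadjusted limma p below 0.05 was found for 8 of the 12 and no overlap for 2, though none passed after adjustment, beside 2.99% and 1.92% of all genes. Their mean came to -0.405, -0.0301, 0.00156 and -0.162 in TBC1D4-deficient replicates 1 to 4, against 0.156, 0.000193, 0.233 and 0.206 in wild-type replicates 1 to 4. With the endothelial mean as a covariate, added after the data were seen, the medians were 0.18 for mitosis and 0.13 for replication, and 0 members were called. Above 0 lay 1 of 6 fibroblast, 1 of 5 thick ascending limb, 0 of 5 principal cell and 1 of 5 intercalated cell markers. The mean of 12 markers of leukocytes, cells that can divide, was -0.0157, 0.0835, -0.0372 and 0.0427 in TBC1D4-deficient replicates 1 to 4, against -0.00206, -0.0299, 0.0167 and -0.0581 in wild-type replicates 1 to 4. Of the leukocyte markers, 6 of 12 lay at or below the receptor percentile, among them Ptprc (CD45) at 2.32 in TBC1D4-deficient and 2.33 in wild-type arrays on the log2 scale.

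Genes of the dissociation response, which tubules switch on while they are digested and sorted, spread most between the wild-type arrays. Their mean over 15 genes was -0.115, -0.0954, -0.00621 and 0.0188 in TBC1D4-deficient replicates 1 to 4, against 0.901, 0.276, -0.564 and -0.416 in wild-type replicates 1 to 4, so the wild-type arrays held both extremes. Wild-type replicate 1, the highest array for these genes, was the lowest for the mitosis mean. The other arrays did not keep that order. Wild-type replicate 2, the next highest here at 0.276, had a mitosis mean of -0.0145, above the -0.0815 of wild-type replicate 4. A relation between the dissociation response and the mitosis genes was not tested. Dusp1, a phosphatase of this response, read 388, 290.2, 453 and 375 in TBC1D4-deficient replicates 1 to 4, against 671, 468, 266 and 400.4 in wild-type replicates 1 to 4 (log2 difference -0.20, -0.74 to 0.34), and Zfp36, which degrades unstable mRNAs, stood at -0.23 (-1.0 to 0.54). The part of these markers in the values of the cell cycle genes was not tested beyond the covariates above.

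**Figure D5:**
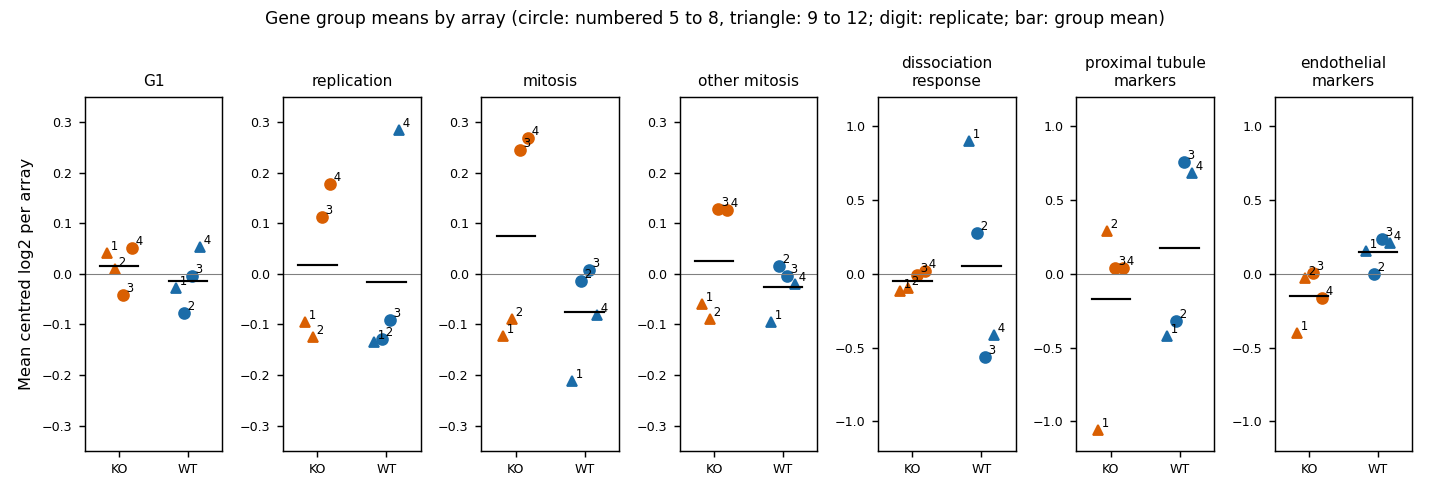
Mean of each gene list per array, every gene centred on its log2 mean over the 8 arrays, TBC1D4-deficient (KO) left of wild-type (WT); digits are replicate numbers, bars are group means, and the first 4 panels have a finer axis than the last 3. TBC1D4-deficient replicates 3 and 4 are the top arrays for both lists of mitosis genes, wild-type replicate 4 is the top array for replication, and the genotypes overlap in every panel. For the endothelial markers they overlap only barely, in TBC1D4-deficient replicate 3 (0.00156) and wild-type replicate 2 (0.000193).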

How the data were processed

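Linear intensity values of 28371 probe sets on 8 arrays were deposited, judged from the range of the values. The submitters' processing notes name Affymetrix Power Tools. No version, summarisation or normalization step is stated in the sources used. Median intensities of 8.41 to 9.03 show that the arrays were already near a common scale, which can hide a shift common to most genes. A small difference in level remained, with medians of 8.93 to 9.03 in arrays 5 to 8 against 8.41 to 8.77 in arrays 9 to 12. With 4 arrays per group, their number limits the precision.

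Values were taken to log2 with no pseudocount or filter and tested with limma 3.58.1 in R 4.3.3. The linear model had genotype alone, the moderated test was 2-sided, and 23039 probe sets with at least 1 symbol entered it. P-values were adjusted by the Benjamini-Hochberg method, and calls were made at 0.05. Of the probe sets, 21158 had 1 symbol, 1881 several and 5332 none; no gene is named from several. Gene IDs of 21128 matched the RefSeq table (GRCm38.p6), which gave chromosomes. Intervals are 95% intervals of the fit. The script was tested on simulated data.

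The members and lists were chosen with earlier results of these data known, so no test is given for a list. The genes named are, in each role group, the 4 with the smallest unadjusted p and the 3 with the highest wild-type level, 2 with the smallest p of each other list, and Tbc1d4; others are described as members or marked. The alternatives tried changed the level filter, the probe sets tested, normalization, the pseudocount, the eBayes prior, array weights, covariates, blocks, arrays left out and the probe set per gene. The endothelial covariate and the fits within ranges of the second description number were added after the data were seen.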

Additional observations from a re-analysis of the deposited data

Results flagged for a closer look

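In 8 of 78 groups of 4 arrays (36 genes and 3 role means in each genotype), 1 array stood further from the rest than Dixon's criterion allows (gap to the nearest array over the range of the group), where chance gives about 1 in 20 groups. That rate holds for independent groups, while these genes share the same arrays and the role means are made from them. The share over all genes was not taken, so the count is not read as a result about the members.

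Wild-type replicate 4 was set apart 3 times. Its replication mean was 0.285, against -0.134 to -0.091 in the other wild-type arrays. Mcm3 stood at 3.31 on the log2 scale there, against 2.58 to 2.66, and Ccnd2 at 3.18, against 3.44 to 3.46.

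Wild-type replicate 1 was the low array of its group for Rrm2, at 5.23 against 5.71 to 5.80, and for Mki67, at 3.16 against 3.81 to 3.86. Wild-type replicate 2 was the low array for Cdk4, at 7.59 against 7.70 to 7.71, and for Cdk6, at 4.22 against 4.58 to 4.63. In the TBC1D4-deficient group, replicate 1 was the high array for Cdk4, at 7.69 against 7.59 in each of the others.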

How the results depend on the processing

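The 27 alternatives called 0 members in every case. The 26 of them run over probe sets called 1, Tbc1d4, except that 13 were called within the upper range of the second description number. Restricting the test to probe sets above the median level left 5 G1, 8 replication and 4 mitosis genes, and the medians were then -0.036 for G1, where the direction turned, and 0.29 for mitosis. The replication median was 0.23 within arrays 5 to 8 and -0.195 within 9 to 12, the set that holds wild-type replicate 4. No other alternative moved a median by more than the spread between arrays of a genotype (0.0485 for G1, 0.178 for replication and 0.164 for mitosis). Each spread is larger than the median it is set beside (0.029, 0.036 and 0.10). A median that vanished would thus not count as moved, and this measure does not show the medians to be stable. The mitosis median was 0.0099 within arrays 9 to 12 and 0.0097 within the upper range. Leaving out 1 array at a time gave medians of -0.0029 to 0.068 for G1, -0.014 to 0.17 for replication and 0.032 to 0.2 for mitosis. Above the receptor 95th percentile the mitosis median was 0.16, with log2 of the value plus 8 it was 0.056, and with the range of the second description number as a covariate it was 0.060. Of the 26 named genes other than Tbc1d4, 14 kept their sign in every alternative that held them (25 to 27 each, since level filters dropped some) and none passed the threshold in any. The 12 with a change of sign were Ccnd3, Ccne1, Cdk4, Cdkn1a, Dusp1, Mad2l1, Mcm6, Mybl1, Pcna, Rbl1, Rrm1 and Zfp36, of which Cdkn1a came to -0.46 within the lower range. Centring each array on its median gave 0.12 for mitosis.

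Replicate numbers are shared between genotypes, but they were not taken as pairs. Correlations of the deviations of same-numbered arrays were 0.402, -0.189, 0.0391 and 0.0117, and 1 of 4 TBC1D4-deficient arrays correlated best with its own number. So few arrays cannot exclude a pairing. The numbers that open the descriptions alternate between the genotypes, and arrays with neighbouring numbers were not examined as pairs. With the replicate block, 0 members and 1 probe set were called, and the medians stayed at 0.029, 0.036 and 0.10.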

Other observations

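Further probe sets of the members gave these values. The dimmer probe sets of Top2a averaged 1.14 and 1.32 on the log2 scale in TBC1D4-deficient arrays, against 1.22 and 1.27 in wild-type arrays, below the median of the receptor probe sets, and differed by -0.083 and 0.054. A dimmer probe set of Kif11 differed by -0.14 (95% interval -0.39 to 0.12) and one of Mad2l1 by 0.028 (-0.31 to 0.37).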
